A study of Bos taurus with 21 samples.

Results

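The small heat shock proteins of muscle are a family of ATP-independent chaperones, and 7 of their genes were followed here in bovine foetal muscle: *HSPB1*, *HSPB2*, *HSPB3*, *HSPB6*, *HSPB7*, *HSPB8* and *CRYAB*. The members were all non-control array probes whose RefSeq transcript belongs to a listed gene in the cattle annotation. This rule found 10 of the 43653 probes, and they belong to 6 of the 12538 genes that could be named. No probe was matched to *HSPB7*, the cardiovascular member of the family, which was not analysed here. *HSPB8* had 3 probes, *HSPB2* and *HSPB6* had 2 each, and *HSPB1*, *HSPB3* and *CRYAB* had 1 each. All 10 probes were well above background on 21 of 21 arrays and all passed the filter on dim probes.

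The family shares a conserved domain, the alpha-crystallin domain, through which its proteins form dimers and large oligomers that hold unfolding proteins in a soluble state without using ATP. In striated muscle these proteins protect filaments and the Z-disc, the plate that anchors the thin filaments at each end of a sarcomere. *CRYAB* and *HSPB1* are known to be abundant in slow oxidative fibres, which is why the slow fibre genes *TNNC1*, the troponin C of slow muscle, and *MYH7*, the slow myosin heavy chain, were set beside them.

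RNA of whole muscle was measured in 21 foetuses, 10 of the Blonde d'Aquitaine breed (BA) and 11 of the Charolais breed (CH), with 1 single-colour array for each foetus. The foetuses came from artificial insemination and were collected at slaughter of the dams at 110, 180, 210 or 260 days post-conception (dpc). BA is a heavily muscled breed in which a myostatin mutation occurs, and the study states that its BA foetuses were not genotyped for it. The 8 groups were BA at 110 dpc (n = 3, with 2 males and 1 female), 180 dpc (n = 2, both female), 210 dpc (n = 3, with 1 male and 2 females) and 260 dpc (n = 2, both female), and CH at 110 dpc (n = 2, both female), 180 dpc (n = 3, with 1 male and 2 females), 210 dpc (n = 3, with 2 males and 1 female) and 260 dpc (n = 3, with 2 males and 1 female). Each breed descended from 2 sires. BA at 180 dpc, BA at 260 dpc and CH at 210 dpc each held foetuses of 1 sire, and the other groups of 2. The sire of BA at 180 dpc was not that of BA at 260 dpc. The sample labels name the Longissimus thoracis, a back muscle, whereas the study's methods name the Semitendinosus, a hindlimb muscle, so the muscle is not settled.

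Values are log2 of the processed spot intensity after each array was scaled to its 75th percentile, so that a difference of 1 is a doubling of signal, and the zero point is shared by all arrays. The 75th percentile lay between 525 and 1174 intensity units, and its median was 767 at 110 dpc, 755 at 180 dpc, 712 at 210 dpc and 589 at 260 dpc. Between 29027 and 34507 probes were well above background per array. The skeletal muscle fibre markers *CKM*, *ACTA1* and *DES*, which are 3 of the 5 listed and those with a probe, were well above background on 21 arrays. Of the 5 listed heart markers 3 had a probe, of which *NPPA* and *NPPB* were well above background on 0 arrays and *TNNI3*, the cardiac troponin I, on 21 of 21. Each probe has its own binding strength, so levels are compared between foetuses and never between genes. All differences were tested with limma over 20132 probes with 1 mean for each of the 8 groups, and a probe was called at a Benjamini-Hochberg adjusted p under 0.05.

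Between 110 and 260 dpc 4 of the 6 measured genes rose. *CRYAB*, *HSPB8*, *HSPB6* and *HSPB1* gained between 2.29-fold and 3.57-fold on the mean of the breeds, while the pair *HSPB2* and *HSPB3* ended near its starting level. All 5 foetuses at 260 dpc lay above all 5 foetuses at 110 dpc for each of the 4 genes that rose. Of all probes tested, 33.3% were called higher and 30.8% lower at 260 than at 110 dpc. In 25.3% of them all foetuses at 260 dpc lay above all at 110 dpc. The median difference of the 6 genes was 1.23, beside 0.04 over all probes tested. The skeletal muscle fibre markers moved with this change, as 3 of 3 rose, and their mean level went from 8.91 to 9.39 over the foetuses at 110 dpc to 11.25 to 11.61 at 260 dpc. The connective tissue markers went the other way, since 5 of 6 fell, with a mean level of 7.42 to 8.34 at 110 dpc and 6.75 to 7.44 at 260 dpc. Of the nerve and Schwann cell markers 3 of 4 tested rose, with a median difference of 1.44 and a mean level of 1.23 to 1.67 at 110 dpc and 1.83 to 2.91 at 260 dpc. Of 3 tested red cell markers 2 fell, with a mean level of 2.78 to 3.89 and then 1.12 to 2.54, and of 3 myoblast markers 2 fell, with a mean level of 4.71 to 6.71 and then 4.25 to 4.88. In whole muscle, fewer cells of a type and less RNA per cell cannot be told apart, and the part of these cell types in the change was not tested.

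**Figure D1:**
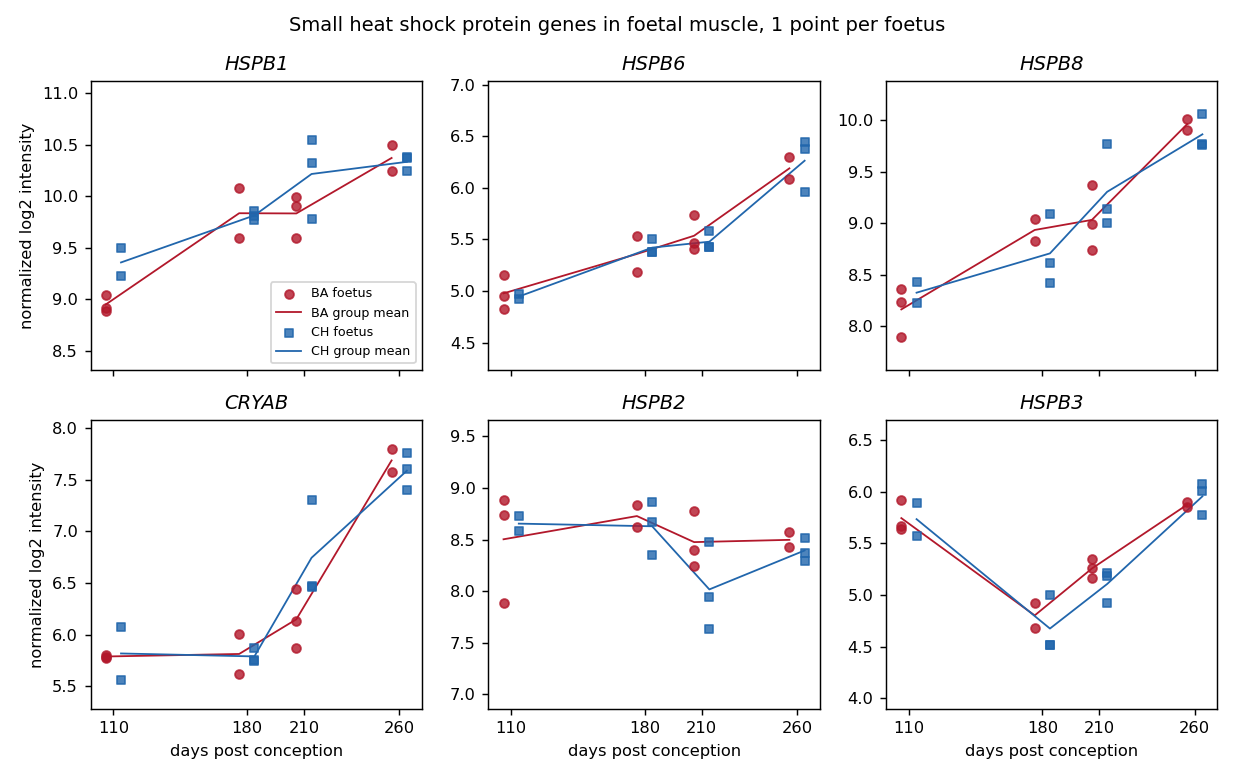
Log2 intensity (scaled to the 75th percentile of each array) of the 6 small heat shock protein genes by gestational stage in days post-conception. Each point is 1 foetus, circles for BA and squares for CH, set slightly apart at each stage, and lines join the group means. *CRYAB* stays between 5.56 and 6.07 at 110 dpc and reaches 7.41 to 7.80 at 260 dpc, *HSPB3* dips at 180 dpc, and *HSPB2* shows no called change.

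*CRYAB* encodes alphaB-crystallin, which binds desmin, titin and actin filaments at the Z-disc. At 110 dpc its log2 intensity was 5.80, 5.79 and 5.78 in the BA foetuses and 6.07 and 5.56 in the CH foetuses. At 180 dpc it was 5.62 and 6.01 in BA and 5.74, 5.87 and 5.76 in CH, within the range at 110 dpc. At 210 dpc it was 5.87, 6.13 and 6.44 in BA and 6.46, 6.47 and 7.30 in CH. At 260 dpc it was 7.80 and 7.58 in BA and 7.41, 7.60 and 7.76 in CH, above every younger foetus. The gain from 110 to 260 dpc was 1.84 (SE 0.16, limma adjusted p = 2.87e-08), a 3.57-fold change, and it was 1.90 in BA and 1.77 in CH.

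*HSPB8* encodes the small chaperone that pairs with *BAG3* to pass damaged filament proteins to autophagy. Its log2 intensity at 110 dpc was 8.23, 8.36 and 7.90 in BA and 8.43 and 8.22 in CH, and at 180 dpc it was 8.83 and 9.04 in BA and 8.42, 9.08 and 8.61 in CH. At 210 dpc the values were 8.74, 8.99 and 9.37 in BA and 9.14, 9.0 and 9.77 in CH, and at 260 dpc they were 10.01 and 9.91 in BA and 9.76, 10.06 and 9.76 in CH. Neighbouring stages overlapped at each step, by 1 CH foetus in the first and in the last, while 110 and 210 dpc did not overlap. The gain from 110 to 260 dpc was 1.67 (SE 0.17, limma adjusted p = 1.34e-07), a 3.17-fold change, with 1.80 in BA and 1.54 in CH. The other 2 probes of *HSPB8* gave 1.86 and 2.03.

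*HSPB6*, also known as Hsp20, encodes a small chaperone of smooth and striated muscle. Its lowest, median and highest log2 intensity was 4.82, 4.95 and 5.16 at 110 dpc, 5.19, 5.38 and 5.53 at 180 dpc, 5.41, 5.45 and 5.73 at 210 dpc and 5.96, 6.30 and 6.45 at 260 dpc. The foetuses at 110 dpc lay below all others and those at 260 dpc above all others, while 180 and 210 dpc overlapped. The gain from 110 to 260 dpc was 1.26 (SE 0.11, limma adjusted p = 2.25e-08), a 2.40-fold change, and the second probe gave 1.01 (limma adjusted p = 0.000121).

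*HSPB1* encodes Hsp27, a chaperone that caps and protects actin filaments. Its log2 intensity at 110 dpc was 8.89, 8.91 and 9.04 in BA and 9.49 and 9.22 in CH, and at 180 dpc it was 9.59 and 10.08 in BA and 9.77, 9.86 and 9.81 in CH. At 210 dpc the values were 9.60, 9.99 and 9.90 in BA and 9.78, 10.32 and 10.54 in CH, and at 260 dpc they were 10.24 and 10.50 in BA and 10.25, 10.37 and 10.38 in CH. All foetuses at 110 dpc lay below all later ones, and the highest foetus of all was a CH foetus at 210 dpc. The gain from 110 to 260 dpc was 1.20 (SE 0.13, limma adjusted p = 5.65e-07), a 2.29-fold change.

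*HSPB3* and *HSPB2* encode partners that join in 1 mixed oligomer made in differentiating muscle cells. For *HSPB3* the lowest, median and highest log2 intensity was 5.58, 5.67 and 5.93 at 110 dpc, 4.51, 4.68 and 5.0 at 180 dpc, 4.92, 5.20 and 5.35 at 210 dpc and 5.78, 5.90 and 6.08 at 260 dpc. It was low in the middle stages, and 110 and 260 dpc overlapped. The value at 260 dpc differed from that at 110 dpc by 0.18 (SE 0.11, limma adjusted p = 0.188), with a 95% interval from -0.06 to 0.42.

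*HSPB2*, first known as the binding protein of myotonic dystrophy kinase and the neighbour of *CRYAB* in the ARS-UCD2.0 annotation, had its lowest, median and highest log2 intensity at 7.88, 8.73 and 8.88 at 110 dpc, 8.35, 8.67 and 8.87 at 180 dpc, 7.63, 8.32 and 8.78 at 210 dpc and 8.29, 8.42 and 8.57 at 260 dpc. The ranges of all 4 stages overlapped. The brighter probe differed by -0.13 between 260 and 110 dpc (SE 0.19, limma adjusted p = 0.555), with a 95% interval from -0.53 to 0.26, and the second probe fell by 0.51 on the log2 scale (SE 0.15, limma adjusted p = 0.00521). The probes of *HSPB2* therefore differ in their call. Over all 10 member probes 7 were called higher and 1 lower, beside 33.3% of all probes called higher and 30.8% called lower. Group-centred values of the probes of 1 gene correlated across the 21 foetuses with Pearson's r of 0.66 for *HSPB2*, 0.71 for *HSPB6* and 0.85 to 0.93 for *HSPB8*, as a description.

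Both breeds made the same 4 calls between 110 and 260 dpc. In BA *CRYAB* rose by 1.90, *HSPB8* by 1.80, *HSPB1* by 1.42 and *HSPB6* by 1.21, against 27.6% of all probes called higher. In CH the same genes rose by 1.77, 1.54, 0.98 and 1.32, against 27.5% of all probes. The difference of the stage change between the breeds was called by limma for 0 of 6 genes and for 0% of all probes. At an unadjusted p under 0.05 limma gave 0 of 6 genes and 7.09% of all probes. It lay between -0.11 and 0.45, and was highest for *HSPB1* at 0.45 (95% interval -0.12 to 1.01, limma adjusted p = 0.764).

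The rise was not made in 1 step, and the genes took their steps at different stages. From 110 to 180 dpc *HSPB1* rose by 0.67 (limma adjusted p = 0.00152), *HSPB8* by 0.58 (limma adjusted p = 0.0178) and *HSPB6* by 0.43 (limma adjusted p = 0.00843). The second probe of *HSPB6* was not called in this step, at 0.22 (limma adjusted p = 0.419). *HSPB3* fell by 1.00 on the log2 scale in the same step (SE 0.11, limma adjusted p = 8.36e-06), to 0.499 of its signal. All 5 foetuses at 180 dpc lay below all 5 at 110 dpc for *HSPB3*, and the share of all probes that lay apart in this way was not counted. *CRYAB* differed by 0.00 (limma adjusted p = 0.995) and *HSPB2* by 0.10 (limma adjusted p = 0.756). Among all probes 12.5% were called higher and 11.4% lower in this step. Without the second BA foetus at 180 dpc the calls of *HSPB6* (limma adjusted p = 0.0558) and *HSPB8* (limma adjusted p = 0.0693) were lost, and without the second CH foetus at 110 dpc that of *HSPB8* was lost (limma adjusted p = 0.0692). On slides that held foetuses of 1 breed at both stages, *HSPB3* was lower at 180 dpc in 4 of 4 pairs, by -1.06 to -0.90, and *HSPB1* was higher in 4 of 4, by 0.36 to 1.16.

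From 180 to 210 dpc 2 of the 6 genes were called, against 5.35% of all probes called higher. *CRYAB* rose by 0.65 (SE 0.15, limma adjusted p = 0.0134) and *HSPB3* rose by 0.44 (limma adjusted p = 0.0154). Both calls were lost without the first BA foetus at 180 dpc (limma adjusted p = 0.0813 and 0.0877). That of *CRYAB* was also lost with slide as a block, at 0.72 (limma adjusted p = 0.0862). *HSPB8* differed by 0.35, *HSPB1* by 0.20, *HSPB6* by 0.12 and *HSPB2* by -0.43, with limma adjusted p from 0.142 for *HSPB2* to 0.536 for *HSPB6*. Only 1 slide held both stages of a breed.

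From 210 to 260 dpc 5 of the 6 genes were called, against 24.8% of all probes called higher. *CRYAB* rose by 1.19, or 2.29-fold (limma adjusted p = 1.08e-05), *HSPB8* by 0.74 (limma adjusted p = 0.00107), *HSPB3* by 0.73 (limma adjusted p = 4.01e-05) and *HSPB6* by 0.72 (limma adjusted p = 3.32e-05). *HSPB1* rose by 0.33 (limma adjusted p = 0.0455), and *HSPB2* differed by 0.20 (limma adjusted p = 0.388). All 5 foetuses at 260 dpc lay above all 6 at 210 dpc for *CRYAB*, *HSPB3* and *HSPB6*. The ranges of *HSPB8* and *HSPB1* overlapped through CH foetuses at 210 dpc. The share of all probes that lay apart in this way between 210 and 260 dpc was not counted. Within slides, *HSPB3* was higher at 260 dpc in 3 of 3 pairs (0.59 to 0.85), *HSPB6* in 3 of 3 (0.38 to 1.02) and *CRYAB* in 3 of 3 (0.10 to 1.93), whereas *HSPB8* was higher in 2 of 3 (-0.01 to 1.28) and *HSPB1* in 2 of 3 (-0.30 to 0.64).

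The calls of the last step depended on how arrays were scaled. The *HSPB1* call was lost in 11 of 21 fits that left out 1 foetus (adjusted p from 0.0505 to 0.188 in limma), namely without BA 110 dpc replicates 1 and 2, BA 210 dpc replicates 1 and 3, BA 260 dpc replicate 2, CH 180 dpc replicates 1, 2 and 3, CH 210 dpc replicate 1 and CH 260 dpc replicates 2 and 3. With quantile normalization *HSPB1* was at -0.09 and *HSPB8* at 0.31 with no call, which left 3 calls. In the deposited value table, which is not scaled between arrays, only *CRYAB* was called in this step. In that table the median of all probes was -0.38 from 210 to 260 dpc, and relative to that median *CRYAB* was at 1.16, *HSPB8* at 0.71, *HSPB3* at 0.70, *HSPB6* at 0.69, *HSPB1* at 0.29 and *HSPB2* at 0.17. From 110 to 260 dpc that median was -0.34, and the 4 genes that rose were called in the table too, at 1.15 to 1.79 relative to it.

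The slow fibre genes were measured over the same stages. *TNNC1* had log2 intensities of 9.23, 9.70 and 9.54 in BA and 9.84 and 9.66 in CH at 110 dpc, and of 11.60 and 11.58 in BA and 11.71, 11.74 and 11.98 in CH at 260 dpc. It stayed between 8.96 and 10.19 over the 11 foetuses at 180 and 210 dpc, below all foetuses at 260 dpc. *TNNC1* gained 2.08 (limma adjusted p = 2.20e-08) and *MYH7* 1.78 (limma adjusted p = 2.08e-07) from 110 to 260 dpc. Both were called in the step from 210 to 260 dpc, at 2.14 (limma adjusted p = 1.08e-07) and 1.47 (limma adjusted p = 4.94e-06), and in no earlier step. *CRYAB*, *HSPB3*, *HSPB6*, *HSPB8* and *HSPB1* were called in the last step too, in which 24.8% of all probes were called higher. From 110 to 180 dpc *CRYAB* and *HSPB2* were not called, and neither were the slow fibre genes. Unlike the slow fibre genes, *CRYAB* was called from 180 to 210 dpc, at 0.65. Differences in step size between these genes were not tested.

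Among the filament partners of these chaperones, all 6 measured Z-disc and filament genes of 8 listed rose from 110 to 260 dpc, with a median of 1.61, and the largest gains were those of *LDB3* (2.89) and *MYOT* (2.87), which both encode Z-disc proteins, and of *ACTN2* (2.19), the alpha-actinin of the Z-disc. Of 9 measured slow fibre genes 7 rose, with a median of 1.61, led by myoglobin *MB* (2.98) and the slow troponin T gene *TNNT1* (2.77). All 7 fast fibre genes tested rose, among them *ACTN3* (6.93), the alpha-actinin of fast fibres, and *MYH2* (3.53), a fast myosin. Of all probes, 33.3% were called higher from 110 to 260 dpc. In the step to 180 dpc 6 of 7 fast and 0 of 9 slow fibre genes rose and 1 slow fibre gene fell. Of all probes 12.5% were called higher and 11.4% lower in that step. In the step from 210 to 260 dpc 9 of 9 slow and 7 of 7 fast fibre genes rose, beside 24.8% of all probes called higher. The difference between fast and slow fibre genes was not tested.

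The other chaperones did not move as 1 group. Of 24 large chaperones tested, 10 rose and 4 fell from 110 to 260 dpc, beside 33.3% of all probes called higher and 30.8% called lower, and their median was 0.15. The heat-inducible Hsp70 gene *HSPA1A* gained 4.69 (limma adjusted p = 5.19e-09), and the Hsp40 genes *DNAJB5* and *DNAJB4* gained 2.57 and 1.42. *HSPA1A* has a near-identical copy in mammals and 1 probe here, so its signal may be shared. The largest called falls were those of *HSPA13*, *HSP90B1* and *HSPA5*, which encode proteins of the endoplasmic reticulum, by 1.21, 0.89 and 0.86 on the log2 scale. Of 13 co-chaperones tested 11 rose and 1 fell, with a median of 0.58. *BAG3*, the partner of *HSPB8*, gained 2.33 (limma adjusted p = 4.11e-10), and the co-chaperones of Hsp90 *FKBP4* and *FKBP5* went apart, at 1.38 and -1.81. Among the heat shock factors, the transcription factors that drive chaperone genes, *HSF1* (1.20) and *HSF4* (1.07) rose and *HSF2* fell by 0.25 on the log2 scale.

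**Figure D2:**
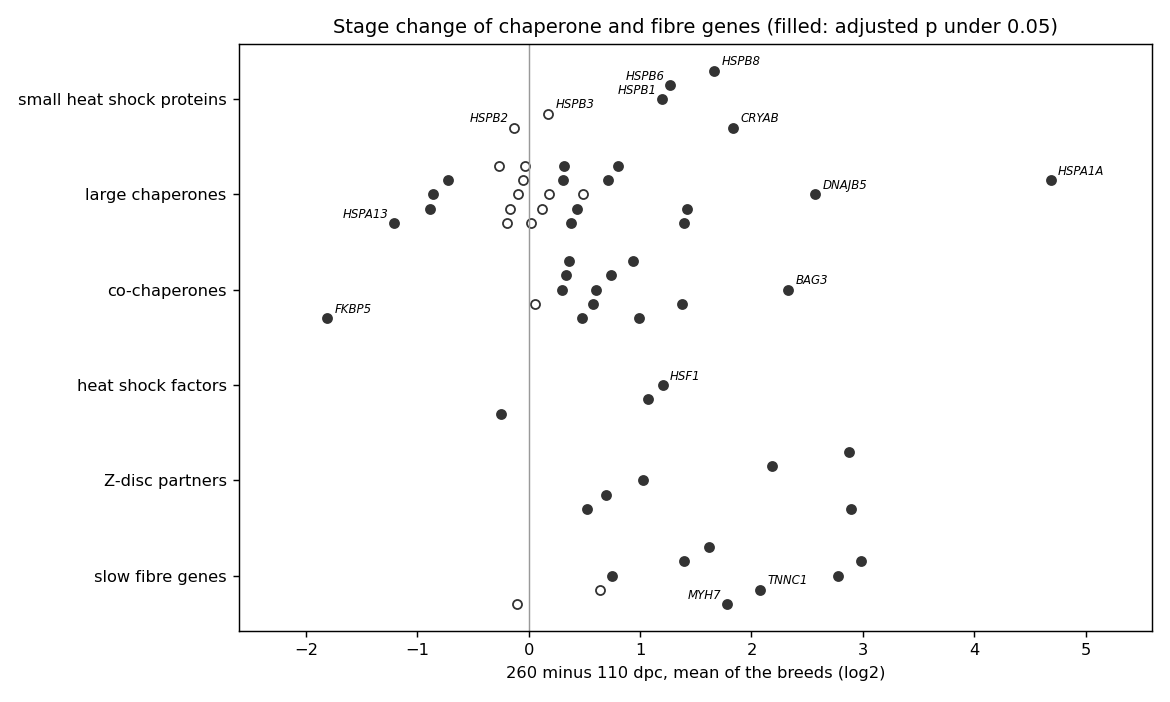
Log2 difference between 260 and 110 dpc on the mean of the breeds for each tested gene of the small heat shock proteins and of the other lists, 1 point per gene with its brightest tested probe (x axis in log2, lists on the y axis with points spread upwards for sight), and filled points for genes called by limma. *HSPA1A* (4.69) and *BAG3* (2.33) lie above the small heat shock protein genes, which run from -0.13 to 1.84.

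*HSPA1A* and *BAG3* were called higher in all 3 steps, including that from 110 to 180 dpc, at 1.13 (limma adjusted p = 0.0303) for *HSPA1A* and 0.85 (limma adjusted p = 0.000413) for *BAG3*, a step in which *CRYAB* was not called. The lowest, median and highest log2 intensity of *HSPA1A* was 1.79, 2.23 and 3.29 at 110 dpc, 2.93, 3.67 and 4.18 at 180 dpc, 4.04, 5.03 and 6.89 at 210 dpc and 6.88, 7.01 and 7.49 at 260 dpc. That of *BAG3* was 4.82, 5.05 and 5.32 at 110 dpc, 5.58, 5.96 and 6.16 at 180 dpc, 6.24, 6.48 and 7.17 at 210 dpc and 7.20, 7.40 and 7.53 at 260 dpc. The stages of *BAG3* did not overlap, and the highest foetus at 210 dpc reached the level of 260 dpc for *HSPA1A*.

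The genes whose level ran most alike over the 21 arrays differed between members, and their Pearson's r is given as a description, since all points share the stage course. Each of these genes entered with its tested probe of highest r. For *HSPB8* they were *HSPA1A* (0.958), *BAG3* (0.956, or 0.953 with its brightest probe) and *VAPA* (0.953), a membrane anchor of the endoplasmic reticulum. For *CRYAB* they were *CELF1* (0.960), an RNA-binding splicing factor, the translation factor gene *EIF5* (0.950) and the Hsp90 co-chaperone gene *FKBP4* (0.949). For *HSPB1* they were *NRAP* (0.955), an actin-anchoring protein of the myofibril, *ACTA1* (0.942), the skeletal alpha-actin, and *CAVIN1* (0.938), a coat protein of caveolae. For *HSPB6* they were 2 genes of mitochondrial respiration, *ATP5PD* and *NDUFA1* (both 0.966), and the Z-disc gene *PDLIM5* (0.965). *HSPB3* ran most alike with *C14H8orf33* (0.888), *YWHAE* (0.888), a 14-3-3 protein, and the brain-type creatine kinase gene *CKB* (0.887). *HSPB2* had the lowest values, with *PUF60* (0.805), *SSNA1* (0.791) and *LRRC47* (0.780).

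No breed difference was called for any of these genes. On the mean of the stages limma called 0 of 6 genes, against 0.358% of all probes. At an unadjusted p under 0.05 it gave 0 of 6, against 12.5% of all probes. The difference of BA minus CH was -0.18 for *HSPB1* (SE 0.09, 95% interval -0.38 to 0.01, limma adjusted p = 0.429). It was -0.13 for *CRYAB* and 0.13 for *HSPB2*, and between -0.03 and 0.05 for *HSPB8*, *HSPB6* and *HSPB3*, with limma adjusted p from 0.669 to 0.963. The two-sided exact permutation test of the breeds within stages gave p = 0.0741 for *HSPB1*, 0.318 for *CRYAB*, 0.368 for *HSPB2*, 0.495 for *HSPB3*, 0.817 for *HSPB8* and 0.869 for *HSPB6*. Within slides, BA lay above CH in 3 of 6 pairs of foetus groups of 1 stage for *HSPB1*, *HSPB2*, *HSPB3* and *CRYAB*, in 4 of 6 for *HSPB6* and in 2 of 6 for *HSPB8*.

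At single stages 0 of 6 genes were called as well. All probes were called at 0.273% at 110 dpc, 0.00993% at 180 dpc, 0% at 210 dpc and 0% at 260 dpc. At an unadjusted p under 0.05 limma gave 1 of 6 genes at 110 dpc (13.8% of all probes), 0 at 180 dpc (6.17%), 2 at 210 dpc (5.24%) and 0 at 260 dpc (5.34%). The largest difference was that of *CRYAB* at 210 dpc. Its BA foetuses at 5.87, 6.13 and 6.44 all lay below the CH foetuses at 6.46, 6.47 and 7.30, a pattern held by 4.91% of all probes. The difference was -0.60 (SE 0.20, 95% interval -1.03 to -0.17, unadjusted p = 0.00962 and adjusted p = 0.742 in limma). Without the CH foetus at 7.30 it was -0.32. On the 2 slides that held both breeds at 210 dpc it was -0.60 and -0.33. All CH foetuses at this stage had the same sire, while the BA foetuses had 2.

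*HSPB1* at 110 dpc showed the same order, with BA at 8.89 to 9.04 below CH at 9.22 and 9.49, as did 17.5% of all probes. The difference was -0.41 (SE 0.19, unadjusted p = 0.0467 and adjusted p = 0.355 in limma), and it was -0.58 on the 1 slide that held both breeds at this stage. At 210 dpc the breeds overlapped for *HSPB1*, at a difference of -0.38 (unadjusted p = 0.0379 and adjusted p = 0.922 in limma), and the slides went apart at -0.72 and 0.21. At 260 dpc *HSPB1* differed by 0.04 and *CRYAB* by 0.10 (limma adjusted p = 1.00 for both), with 95% intervals from -0.36 to 0.44 and from -0.38 to 0.58. The slow fibre genes, for comparison, differed by -0.32 for *TNNC1* (limma adjusted p = 0.292) and -0.24 for *MYH7* (limma adjusted p = 0.444) on the mean of the stages. In the lists of chaperones, co-chaperones, heat shock factors, filament partners, slow fibre and fast fibre genes, 0 genes were called between the breeds on the mean of the stages.

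**Figure D3:**
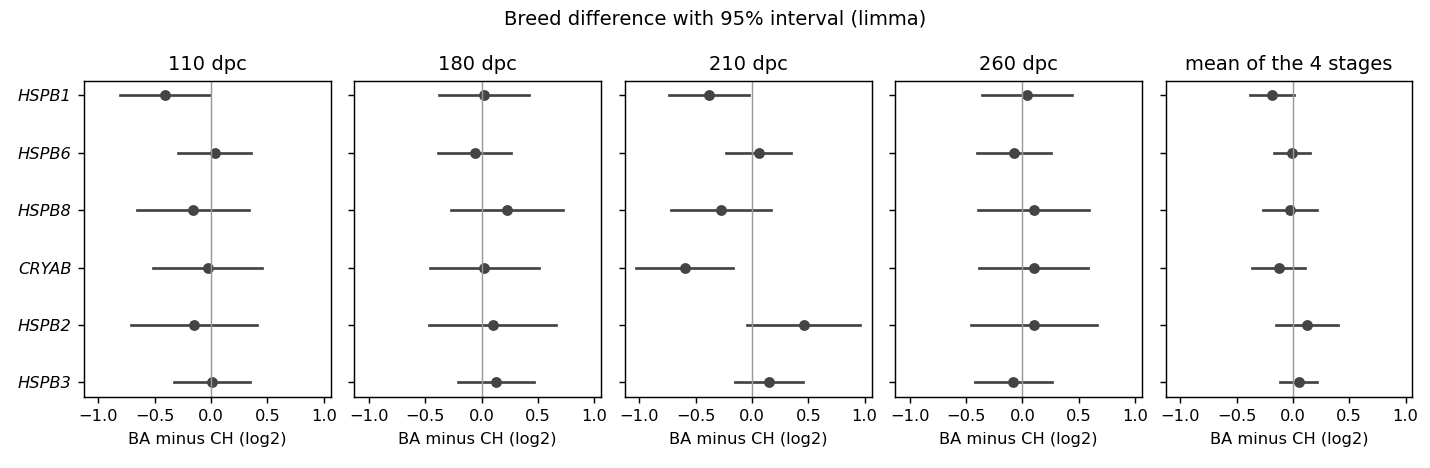
Difference of BA minus CH in log2 intensity for the 6 small heat shock protein genes at each stage and on the mean of the stages, with 95% intervals from limma. *CRYAB* at 210 dpc is at -0.60, and none of the values is called after adjustment.

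The stage course alone makes these genes and the slow fibre genes correlate, so co-variation was taken within groups, from the deviation of each foetus from the mean of its breed and stage group. *TNNC1* and *MYH7* themselves varied together, with Pearson's r of 0.88 over 21 foetuses (two-sided exact permutation within groups, p = 0.000547) and 0.79 without the 2 foetuses farthest from the median. No relation of a small heat shock protein gene to either was called. With the slow fibre gene as a covariate beside the group means, limma called 0 of 6 genes for *TNNC1*, against 0.0596% of all probes, and 0 of 6 for *MYH7*, against 0% of all probes. At an unadjusted p under 0.05 it gave 0 of 6 for each, against 2.18% and 4.09% of all probes.

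For *TNNC1* the within-group Pearson's r was 0.16 for *CRYAB* and 0.15 for *HSPB8*, and Spearman's rho was 0.04 and 0.05. It was 0.08 for *HSPB3*, -0.05 for *HSPB2*, -0.12 for *HSPB6* and -0.25 for *HSPB1*, with rho of 0.11, 0.01, -0.23 and -0.25. The exact permutation p of Pearson's r lay between 0.570 for *HSPB1* and 0.896 for *HSPB2*, and that of rho between 0.420 and 0.972, in a family of 12 relations. Without the 2 foetuses farthest from the median of *TNNC1*, the first BA and the second CH foetus at 210 dpc, r became 0.58 for *HSPB2*, 0.33 for *CRYAB* and 0.12 for *HSPB1*. Without the CH foetus with the highest *CRYAB* at 210 dpc, r was -0.23 for *CRYAB* and -0.13 for *HSPB8*, so that even the sign rests on single foetuses. Over all probes the median r with *TNNC1* was -0.03, and 45.3% of probes had a positive r.

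For *MYH7* the within-group r was 0.23 for *HSPB2*, 0.22 for *HSPB3* and *HSPB8*, 0.07 for *CRYAB*, -0.14 for *HSPB1* and -0.21 for *HSPB6*. Spearman's rho was 0.06 for *HSPB2*, 0.14 for *HSPB3* and *HSPB8*, -0.10 for *CRYAB*, -0.21 for *HSPB1* and -0.28 for *HSPB6*. The exact permutation p of Pearson's r lay between 0.398 for *HSPB3* and 0.813 for *CRYAB*, and that of rho between 0.335 and 0.856. Without the 2 foetuses farthest from the median of *MYH7*, the second BA foetus at 110 dpc and the first at 210 dpc, r became 0.51 for *HSPB8* and 0.45 for *CRYAB*. Over all probes the median r was 0.01.

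**Figure D4:**
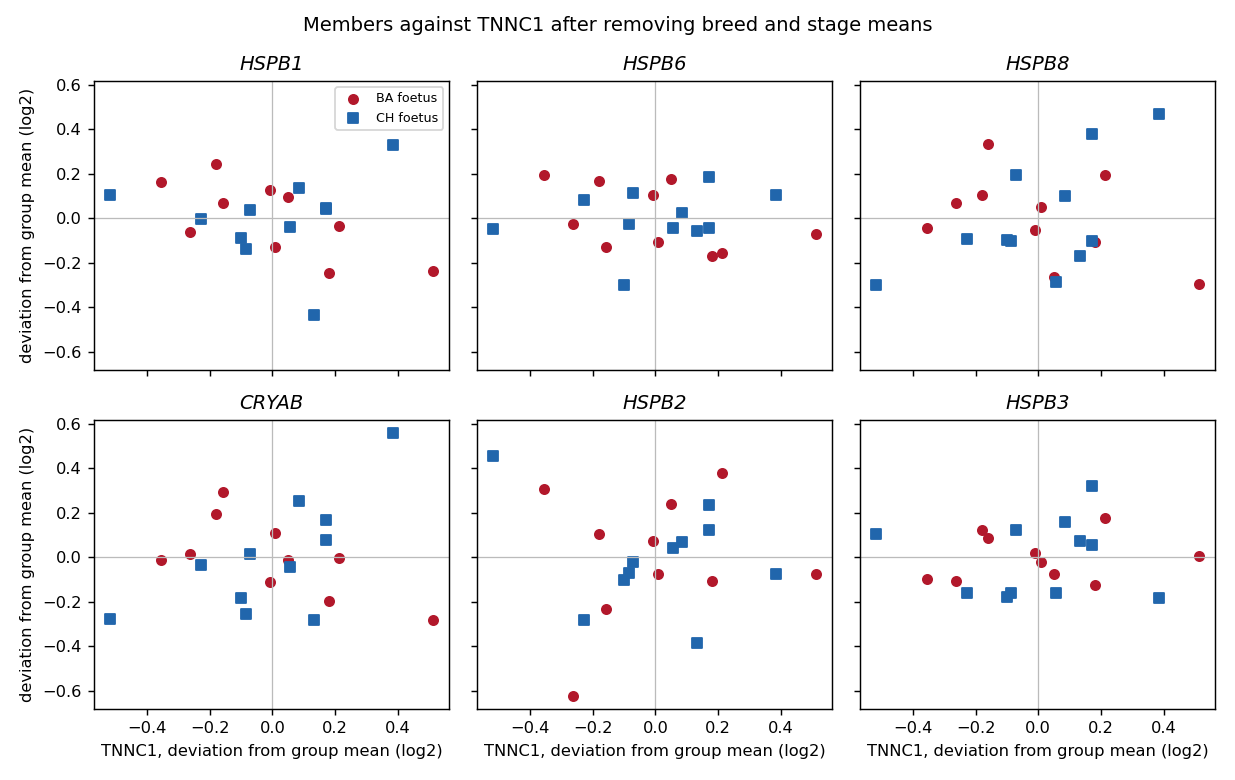
Deviation of each foetus from its group mean in log2 intensity, *TNNC1* on the x axis and each of the 6 small heat shock protein genes on the y axis, with BA and CH drawn apart (21 foetuses). Pearson's r over both breeds lies between -0.25 for *HSPB1* and 0.16 for *CRYAB*, while the breeds slope apart for *CRYAB* and *HSPB8*.

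The breeds were opposite in sign for some of these relations. Across the 10 BA foetuses the within-group r with *TNNC1* was -0.65 for *CRYAB*, -0.48 for *HSPB8* and -0.69 for *HSPB1*. Across the 11 CH foetuses it was 0.69, 0.62 and 0.13. Leaving out 1 foetus at a time, r in BA ran from -0.81 to -0.25 for *CRYAB* and from -0.72 to 0.05 for *HSPB8*, and in CH from 0.40 to 0.88 and from 0.33 to 0.73. For *HSPB1* it ran from -0.83 to -0.46 in BA and from -0.50 to 0.71 in CH, so its sign in CH rests on single foetuses. For *HSPB6* r with *TNNC1* was -0.48 in BA (-0.63 to -0.26 leaving out 1 foetus) and 0.28 in CH (0.12 to 0.41). For *HSPB2* it was 0.16 and -0.29, and took both signs in each breed when 1 foetus was left out. With *MYH7*, r was -0.52 in BA and 0.62 in CH for *CRYAB*, and -0.28 and 0.78 for *HSPB8*. Leaving out 1 foetus at a time, these ran from -0.67 to -0.12 and from 0.13 to 0.70 for *CRYAB*, and from -0.78 to 0.24 and from 0.57 to 0.91 for *HSPB8*. A limma fit with 1 slope per breed, added after these values had been seen, called the difference of slopes for 0 of 6 genes and 0% of all probes, for *TNNC1* and likewise for *MYH7* (0%). The slope of *CRYAB* on *TNNC1* was lower in BA by 1.18 log2 units per log2 unit, that is -1.18 (SE 0.38, unadjusted p = 0.00735 and adjusted p = 1.00 in limma), and that of *HSPB8* differed by -1.02 (unadjusted p = 0.0299 in limma). Over all probes 3.18% had an unadjusted p under 0.05 in this test. The slopes on *MYH7* differed by -1.18 for *HSPB8* (unadjusted p = 0.0131 in limma) and by -1.10 for *CRYAB* (unadjusted p = 0.0217 in limma). For the other genes the unadjusted limma p on *MYH7* lay between 0.280 and 0.778, and 2.58% of all probes were under 0.05.

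Among themselves most pairs of the 6 genes had a positive r within groups, which was not tested. Of 15 pairs 14 had a positive r, with a median of 0.35 and a range from -0.07 to 0.76. Of all probes, 50.7% had a positive r with *CRYAB* and 59.5% with *HSPB3*, the lowest and highest shares among the members. The median r over all probes was 0.00 and 0.09 for these members. Some pairs were near 0, as *HSPB6* with *HSPB8* (0.02) and *HSPB3* with *HSPB6* (0.04). The highest values were those of *HSPB8* with *CRYAB* (0.76), *HSPB1* with *CRYAB* (0.69) and *HSPB1* with *HSPB6* (0.58). The neighbouring genes *CRYAB* and *HSPB2* had an r of 0.00. Part of this rests on the third CH foetus at 210 dpc, which lay above its group mean by 0.56 for *CRYAB*, 0.47 for *HSPB8* and 0.33 for *HSPB1*. Without it 13 pairs were positive with a median of 0.36, *HSPB8* with *CRYAB* was at 0.61 and *HSPB1* with *CRYAB* at 0.54. *HSPB3* with *HSPB8* then went from 0.36 to 0.73, and *HSPB3* with *CRYAB* from 0.13 to 0.57. These values, and those that follow, are descriptions over 21 foetuses that share the scaling of their arrays.

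Values with the inducible chaperone genes were taken in the same way, and these examples were picked after their values had been seen. *CRYAB* had an r of 0.91 with *HSPA1A*, 0.88 with *BAG3* and 0.83 with the Hsp40 gene *DNAJA4*. Without the third CH foetus at 210 dpc, which lay above its group mean by 1.32 for *HSPA1A* and 0.46 for *BAG3*, these values were 0.82, 0.78 and 0.75. *HSPB8* had an r of 0.79 with *HSPA1A* and 0.70 with *BAG3*, and without that foetus 0.67 and 0.53. *HSPB1* had an r of 0.68, 0.66 and 0.77 with *HSPA1A*, *BAG3* and *DNAJA4*, and without that foetus 0.51, 0.49 and 0.67. With *HSPA1A*, *HSPB6* had an r of 0.23, *HSPB3* of 0.12 and *HSPB2* of 0.11, and without that foetus 0.11, 0.56 and 0.24, so the order of the genes rests on it. With *BAG3*, *HSPB6*, *HSPB3* and *HSPB2* had an r of 0.43, 0.20 and -0.15, and without that foetus 0.40, 0.60 and -0.14. The difference from the values with the slow fibre genes was not tested. Over all 21 foetuses *HSPB2* and *HSPB3* had a higher r with *MYH7* (0.23 and 0.22) than with *HSPA1A*. For *HSPB3* this order rests on that foetus, since without it the r with *HSPA1A* was 0.56. With *MYH7* the r of *HSPB3* ran from 0.05 to 0.41 when 1 foetus at a time was left out.

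Over the whole list of 37 tested chaperones and co-chaperones, r was positive for 35 with *HSPB1* (94.6%, beside 53.0% of all probes), for 33 with *CRYAB* (89.2%, beside 50.7%) and for 32 with *HSPB8* (86.5%, beside 53.6%). It was positive for 29 with *HSPB3* (78.4%, beside 59.5%), 27 with *HSPB6* (73.0%, beside 51.2%) and 23 with *HSPB2* (62.2%, beside 55.3%).

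**Figure D5:**
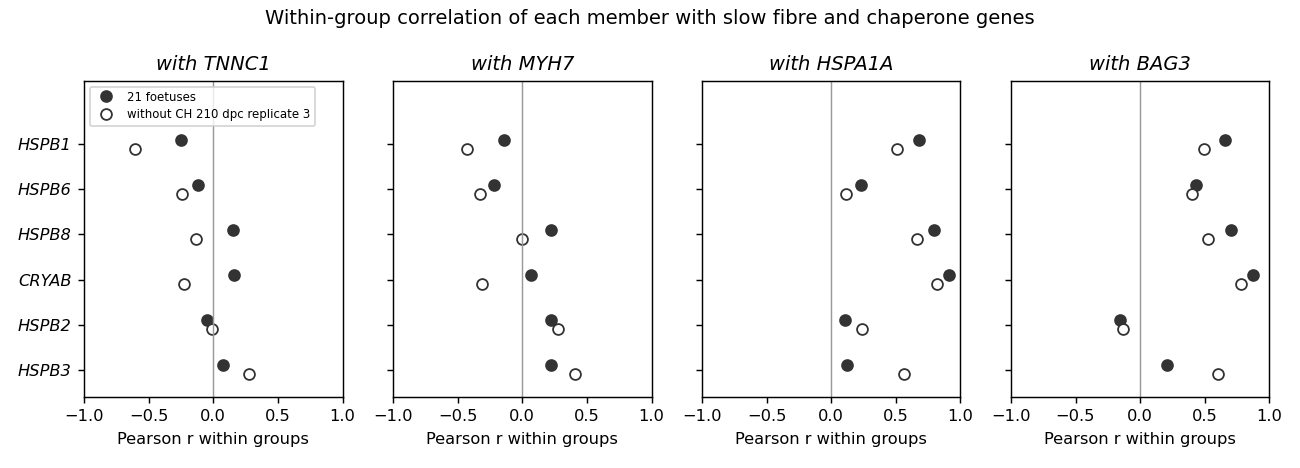
Within-group Pearson's r (x axis) of each small heat shock protein gene (y axis) with *TNNC1*, *MYH7*, *HSPA1A* and *BAG3*, 1 panel each, over 21 foetuses (filled) and without the third CH foetus at 210 dpc (open). *CRYAB* is at 0.91 with *HSPA1A* and at 0.16 with *TNNC1*, and the open points of *CRYAB* and *HSPB8* lie at -0.23 and -0.13 with *TNNC1*.

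Some measures of the arrays and of other cells moved with these deviations. The 75th percentile of the array had a within-group r of -0.60 with *HSPB1*, -0.45 with *CRYAB* and -0.39 with *HSPB8*, and -0.04 with *TNNC1*. The number of probes well above background had an r of -0.55, -0.53 and -0.51 with the same 3 genes. The mean level of the 3 measured skeletal muscle fibre markers had an r of 0.22 to 0.63 with the 6 genes. That of the nerve and Schwann cell markers, of which 5 of 5 had a probe, had an r of -0.59 to -0.32, and it ranged from 1.00 to 2.91 over the groups. *SOX10*, a defining Schwann cell factor, was well above background on 15 of 21 arrays. The part of these measures in the co-variation was not tested.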

How the data were processed

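RNA of 21 bovine foetal muscles was amplified, labelled with Cy3 and hybridised to single-colour Agilent 4x44K bovine arrays, 1 per foetus, on 6 slides scanned on 3 days. The deposited scanner files hold processed intensity from Agilent Feature Extraction 10.7, run by the authors with background and multiplicative detrending and without subtraction of background. The authors also deposited a value table in log2. Of its 649670 values, 649643 (99.9958%) were within 0.01 of the log2 processed intensity, so it is not scaled between arrays. Differences between arrays in the 75th percentile therefore stay in that table and were removed here by scaling. The median 75th percentile was 767 at 110 dpc and 589 at 260 dpc. Whether this difference came from hybridisation or from the RNA of the stages was not tested.

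Control spots and 258 spot values flagged as outliers were left out, spots of a probe were averaged, and 0 probe values were saturated. From each log2 intensity the array's own 75th percentile was taken away, and 2.69 was then added on all arrays. Probes were named through the RefSeq accessions of the files and the ARS-UCD2.0 annotation, which named 26628 of 43653 probes and 12538 genes. No column of other samples was used. Probes above 0 in at least 7 of 8 group means were tested (20132 probes of 7932 genes). A gene was measured by its brightest tested probe, except that the genes most alike to a member entered with their probe of highest r. R 4.3.3 was used with jsonlite 2.0.0 and data.table (version 1.17.8), and limma 3.58.1 fitted 8 group means over 21 arrays (13 residual and 3.79 prior degrees of freedom, or 12 residual with a slow fibre gene as covariate), with Benjamini-Hochberg adjustment over all probes. Single values were permuted exactly, breeds within stages (20000 assignments) or values within groups (62208). The number of arrays limits the precision, and limma set each difference against the spread between foetuses within groups, pooled over the groups. The pooled within-group SD was 0.17 to 0.32 for the 6 genes.

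The members and lists were chosen with earlier results of these data known. Named in the text are all members with all probes, *TNNC1* and *MYH7*, the 3 genes most alike to each member, and the 2 or 3 list genes with the largest called change in each direction. The named within-group chaperone examples and the slopes per breed were chosen after the data were seen.

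Alternatives were normexp background correction (offset 50), quantile and median scaling, the deposited table, no filter or a detection filter, slide or replicate number as a block, sire as a random block, sex as a covariate, a trended prior, other probes and each foetus left out. Replicate numbers did not pair foetuses, as deviations of samples with 1 number had a median r of 0.03 in 66 pairs and the other 126 pairs 0.00.

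On simulated data with 200 of 20052 probes shifted by 1 log2 unit, 181 (90.5%) were recovered for 260 against 110 dpc with 14 false calls, 195 (97.5%) for the mean breed difference with 15, and 165 (82.5%) for the breed difference at 210 dpc with 8. For the slope on *TNNC1* 161 of 200 among 20051 probes (80.5%) were recovered with 7 false calls. The noise was drawn for each probe on its own, and smaller shifts were not simulated. The 6 genes differed between the breeds by -0.18 to 0.13 on the mean of the stages and by -0.60 to 0.46 at 210 dpc. Their slopes on *TNNC1* were -0.18 to 0.14. The recovered shares therefore do not tell how often effects of these sizes would be called.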

Additional observations from a re-analysis of the deposited data

How the results depend on the processing

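In 42 alternative settings, 21 of which left out 1 foetus, the calls of *CRYAB*, *HSPB8*, *HSPB6* and *HSPB1* between 110 and 260 dpc held in the 33 that apply to them, with *HSPB1* at 0.69 to 1.30 and *CRYAB* at 1.43 to 1.96. Breed differences and relations to the slow fibre genes had 0 calls in every setting. Between 210 and 260 dpc the count of 5 calls was 3 with quantile normalization and 1 in the deposited value table. Between 110 and 180 dpc the count of 4 was 2 in that table, and between 180 and 210 dpc the count of 2 was 0 in that table and 1 with slide as a block. Leaving out 1 foetus gave 2 to 4 calls between 110 and 180 dpc, 0 to 2 between 180 and 210 dpc and 4 to 5 between 210 and 260 dpc. The cause of these changes in the counts was not tested. With the replicate number as a block, all counts stayed the same (4, 4, 2 and 5 for the stage comparisons in the order of the text), and only *HSPB2* with *TNNC1* changed sign, to 0.22.

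Values that turned sign were all without a call, except *HSPB1* between 210 and 260 dpc, which was at -0.095 with quantile normalization and -0.083 in the deposited table. Quantile normalization also turned *HSPB3* from 110 to 260 dpc (-0.062), *HSPB2* from 210 to 260 dpc (-0.20), the breed differences of *HSPB6* (0.011) and *HSPB8* (0.054) and *CRYAB* with *MYH7* (-0.083). Median scaling turned *CRYAB* from 110 to 180 dpc (0.022) and *HSPB2* with *TNNC1* (0.035). The deposited table turned *HSPB3* from 110 to 260 dpc (-0.21), *CRYAB* from 110 to 180 dpc (0.020), *HSPB2* from 210 to 260 dpc (-0.21), the breed differences of *HSPB6* (0.043) and *HSPB8* (0.027), *HSPB1*, *HSPB2* and *HSPB6* with *TNNC1* (0.25, 0.29 and 0.51) and *HSPB1* and *HSPB6* with *MYH7* (0.13 and 0.35). Slide as a block turned *HSPB2* from 110 to 260 dpc (0.021), the breed difference of *HSPB8* (0.00081) and *HSPB2* and *CRYAB* with *MYH7* (-0.22 and -0.022). Sex as a covariate turned *CRYAB* from 110 to 180 dpc (0.017), *HSPB3* with *TNNC1* (-0.085) and *HSPB1* with *MYH7* (0.019). The dimmest probe turned *HSPB2* from 110 to 180 dpc (-0.034) and from 210 to 260 dpc (-0.23). Another *MYH7* probe turned *HSPB8* (-0.24) and *CRYAB* (-0.15). Without the 2 farthest foetuses, *HSPB1* and *HSPB2* with *TNNC1* were at 0.12 and 0.58, and *HSPB1* and *HSPB6* with *MYH7* at 0.16 and 0.052.

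Leaving out 1 foetus at a time turned the sign of values without a call in these ranges. From 110 to 180 dpc *CRYAB* ran from -0.13 to 0.13 and *HSPB2* from -0.055 to 0.20. The breed difference ran from -0.054 to 0.031 for *HSPB6* and from -0.069 to 0.031 for *HSPB8*. With *TNNC1*, r ran from -0.34 to 0.34 for *HSPB2*, -0.055 to 0.27 for *HSPB3*, -0.24 to 0.047 for *HSPB6*, -0.13 to 0.48 for *HSPB8* and -0.23 to 0.48 for *CRYAB*. With *MYH7* it ran from -0.42 to 0.087 for *HSPB1*, -0.16 to 0.53 for *HSPB2* and -0.31 to 0.34 for *CRYAB*.

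*HSPB2* gained a call from 110 to 260 dpc with quantile normalization (-0.68, limma adjusted p = 0.00173) and with its dimmer probe (-0.51), and from 180 to 210 dpc with quantile normalization (-0.57). *HSPB3* gained one from 110 to 260 dpc with slide as a block (0.40, limma adjusted p = 0.0191). *HSPB1* from 210 to 260 dpc lost its call with no filter, the detection filter and slide as a block (limma adjusted p = 0.097, 0.0642 and 0.193). The share of calls that were higher was 52.0%, 52.3%, 55.3%, 55.5% and 54.2% for 260 against 110, 180 against 110, 210 against 180 and 260 against 210 dpc and the mean breed difference. In the deposited table it was 25.4%, 74.9%, 70.6%, 8.91% and 70%, and with median scaling 60.2%, 58.9%, 48.6%, 69.5% and 42.3%. With median scaling the median of all probes was 0.14 from 110 to 260 and 0.12 from 210 to 260 dpc.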

Other observations

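The other small heat shock genes of the array were dim or unmoved. *CRYAA*, the lens alpha-crystallin, was well above background on 3 of 21 arrays and *HSPB9*, a testis member, on 2, and both were under the filter. *ODF1*, the sperm tail member, was tested and differed by 0.25 between 260 and 110 dpc (limma adjusted p = 0.170).

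Within groups the fast fibre genes gave higher median values of Pearson's r over 21 foetuses than the slow fibre genes for all 6 members. Over 7 fast fibre genes the median was 0.57 for *HSPB2*, 0.36 for *HSPB3*, 0.31 for *HSPB1* and *HSPB6*, 0.18 for *HSPB8* and 0.09 for *CRYAB*. Over 9 slow fibre genes it was 0.10 for *HSPB2*, 0.12 for *HSPB3*, -0.25 for *HSPB1*, -0.12 for *HSPB6*, -0.02 for *HSPB8* and 0.01 for *CRYAB*. Over 6 genes of Z-disc and filament partners it lay between 0.27 and 0.37. These values are descriptions, the genes of a list are not independent, and the difference between the lists was not tested.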
